A study of Mus musculus with 2 samples.

Results

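The core genes of the circadian clock were followed in back skin of mice given saline or the fibroblast growth factor FGF18. They were 10 genes chosen by symbol (Arntl, Clock, Npas2, Per1, Per2, Per3, Cry1, Cry2, Nr1d1 and Dbp), and 9 of the 10 had a probe set (transcript cluster) annotated to that symbol alone, out of 22180 genes so measured on the arrays. The tissue was dorsal skin of male BALB/cAJcl mice aged 7 weeks, whose hair had been removed to start follicle growth. The FGF18 sample came 6 days after depilation from an intraperitoneal injection of 100 µg FGF18 in saline with 5 µg/µl heparin, then γ-irradiation of the whole body with 6 Gy 24 h later, and skin was removed 4 h after that. The other sample is labelled only as a saline control, and the sources used here state neither its irradiation and heparin, nor the number of mice behind either array, nor the hour of day at which skin was taken. Each group was 1 array, so no spread between animals and no test could be had, and every difference compares these 2 arrays. In whole skin, fewer cells of a type and less RNA per cell cannot be told apart.

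The mammalian clock is a loop of transcription factors and their own inhibitors. In its positive arm, ARNTL (also called BMAL1) pairs with CLOCK or with the CLOCK paralog NPAS2 and binds E-box elements in DNA. Among the genes they switch on are the period genes Per1, Per2 and Per3 and the cryptochrome genes Cry1 and Cry2, the negative arm, whose proteins return to the nucleus and inhibit the pair. A further loop runs through Nr1d1, which encodes the repressor REV-ERBα. This protein shuts off Arntl and Npas2 at elements called RORE, where ROR proteins activate. Dbp encodes an activator of D-box elements and is a direct E-box target. In most peripheral tissues, skin included, transcripts of Nr1d1, Dbp and the period genes therefore peak at about the opposite time of day to those of Arntl and Npas2, whereas Clock and Cry2 cycle weakly and Cry1 peaks late. In skin the clock is also known to interact with the hair cycle.

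Elements bound by these factors were looked for in the promoters of the clock genes. RefSeq promoter windows (build GRCm38.p6), which run from 250 bases before to 50 bases after a transcript start, matched 9 of the 10 genes with 13 windows. The motifs were searched on both strands. They are the E-box CACGTG, its variant CACGTT (here E'-box), the D-box TTATGTAA, the RORE core TAGGTCA and the cAMP response element TGACGTCA. At least 1 motif was found in 6 genes, and no matches overlapped. The stretches that hold a match are shown 5′ to 3′ on the strand of the gene with the motif in capitals, and Ciart, a further repressor of the clock, is added because it holds 3 E-boxes.
Per1 (E-box, chr11:69098759-69098812, + strand): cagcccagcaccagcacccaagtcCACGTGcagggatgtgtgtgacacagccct
Cry1 (E'-box, then E-box, chr10:85185089-85185153, - strand): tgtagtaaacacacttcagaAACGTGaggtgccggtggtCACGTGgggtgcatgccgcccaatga
Cry2 (E'-box, chr2:92434206-92434259, - strand): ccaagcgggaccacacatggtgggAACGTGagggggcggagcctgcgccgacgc
Nr1d1 (E'-box, chr11:98775378-98775429, - strand): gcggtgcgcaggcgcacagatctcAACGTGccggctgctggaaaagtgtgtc
Per3 (both D-boxes, chr4:151044804-151044882, - strand): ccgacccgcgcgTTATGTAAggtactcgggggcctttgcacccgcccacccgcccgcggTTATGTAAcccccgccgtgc
Arntl (RORE core, chr7:113207531-113207557, + strand): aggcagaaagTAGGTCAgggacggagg
Ciart (3 E-boxes, chr3:95882255-95882356, - strand): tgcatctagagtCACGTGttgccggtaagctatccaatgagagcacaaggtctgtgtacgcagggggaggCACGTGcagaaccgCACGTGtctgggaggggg

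Counted from the transcript start, the Per1 E-box begins at base -166 and the Cry1 E-box at base -60. Both Per3 D-boxes lie upstream, beginning at bases -205 and -158, and the Arntl RORE core begins at base 31 after the downstream of its annotated starts. Of all 32851 windows, 7.15% hold the E-box, 4.68% the E'-box, 0.938% the D-box, 2.61% the RORE core and 1.79% the cAMP response element. The windows of Clock, Npas2 and Dbp hold none of these letters, which says nothing about elements elsewhere in those genes. These matches are a description of the sequence and not of binding.

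None of the 9 measured clock genes differed by as much as 1.5-fold between the arrays, a size reached by 8.28% of the 11090 genes at or above the median level. Each difference is log2(intensity + 1) with FGF18 less that in saline, a scale that understates folds of dim genes. They ran from -0.14 (Arntl) to 0.37 (Cry2) with a median of 0.02, and 5 genes were higher and 4 lower. Over the 11090 genes the median was 0.07, and 59.4% were higher. After a trend of difference on intensity was subtracted, 3 clock genes were higher and 6 lower, and 49.7% of the 11090 genes were higher. The median size of a difference, whatever its sign, was 0.10 for the clock genes and 0.20 for the 11090 genes. As a measure of disagreement between probe sets, separate clusters of the same gene had differences with a standard deviation (SD) of 0.24, over 770 clusters of 319 genes. This SD covers no variation between animals. All but Cry2 of the measured clock genes, 8 of 9, had a difference smaller than it. Of the 11090 genes, 41.8% were at least 0.241 apart, so most of them also had a difference smaller than this SD.

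**Figure D1:**
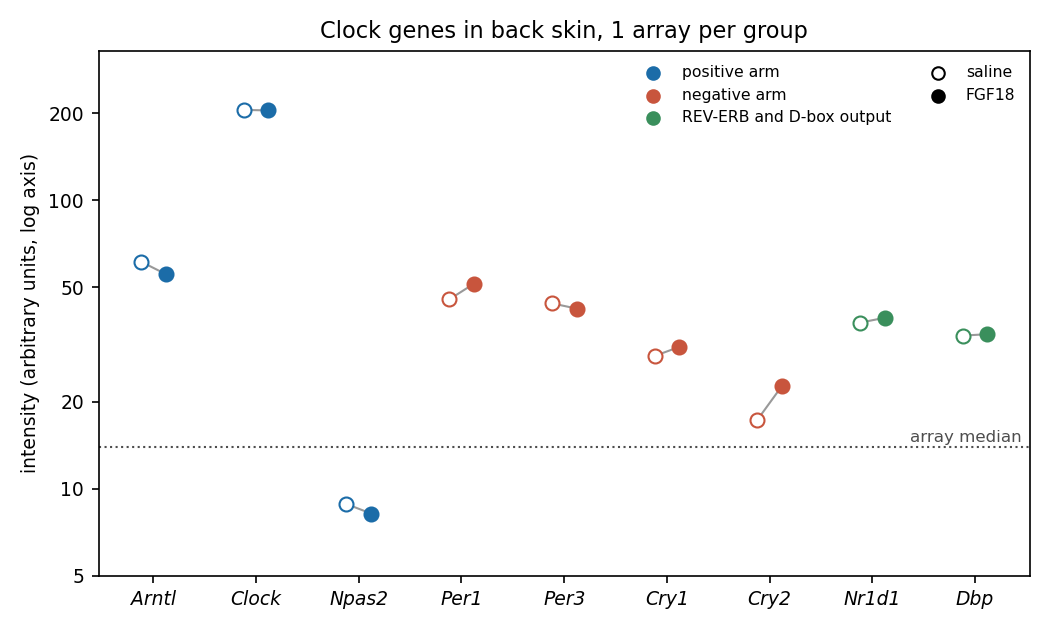
Intensity of each measured clock gene on the saline array (open) and the FGF18 array (filled), on a log axis, with the saline array's median of 14.0 dotted. Each pair of points sits close together, Cry2 has the widest gap (17.3 and 22.7), and Npas2 alone lies below the median.

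In the positive arm Arntl was slightly lower on the FGF18 array, Clock was near equal and Npas2 was too dim to give a direction. Arntl, whose protein pairs with CLOCK or NPAS2, had intensities of 61.3 in saline and 55.5 with FGF18 (1.10-fold lower, difference -0.14). Clock, which pairs with ARNTL, read 206 and 205 (difference -0.01). Npas2, the CLOCK paralog, read 8.86 and 8.21, below the array medians of 14.0 and 13.8, and is not shown above background, so no fold is given. Of the 11090 genes, 63.5% were at least as far apart as Arntl and 96.4% at least as far apart as Clock. Arntl ran from -0.25 to -0.11 over the alternatives for scaling and clusters.

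In the negative arm 3 of 4 measured genes were higher after FGF18 and Per3 was lower. Per1, an inhibitor of the loop that hormones and light can also induce directly, went from 45.3 on the saline array to 51.4 on the other (1.13-fold higher, difference 0.18). Per3, the period gene with both D-boxes shown above, read 43.9 and 42.2 (difference -0.06). Per1 and Per3 thus lay on opposite sides of 0, but both differences were below the probe-set SD. The only cluster that carries the Per2 symbol is also annotated to 9830107B12Rik. It read 14.5 in saline and 17.3 after FGF18 (difference 0.25). Because its signal cannot be assigned to a single gene, Per2 was given no value.

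The cryptochrome genes were both higher. Cry1, the stronger repressor, went from 28.9 to 31.0 (1.07-fold higher), a difference of 0.10 that became 0.04 after subtraction of the intensity trend. Cry2 read 17.3 and 22.7 (1.29-fold higher, difference 0.37), the widest gap in the set. Of the 11090 genes, 22.7% were at least that far apart. A further cluster annotated to both Cry2 and the overlapping long noncoding RNA D930015M05Rik was on the other side, at 22.4 in saline and 20.6 after FGF18 (difference -0.12). With that cluster averaged in, the Cry2 difference was 0.13. The Cry2 value therefore depends on which probe set is read.

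Nr1d1 and Dbp, the most direct readouts of E-box activity in the set, were near equal on the arrays. Nr1d1 read 37.7 in saline and 39.2 after FGF18, a difference of 0.05 that became -0.03 after subtraction of the intensity trend. Dbp read 34.0 and 34.4, a difference of 0.02 that became -0.06 in the same way. Of the 11090 genes, 85.0% were at least as far apart as Nr1d1 and 94.7% at least as far apart as Dbp. Nr1d1 overlaps the thyroid hormone receptor gene Thra, which read 25.5 and 29.5, and Dbp overlaps the sphingosine kinase gene Sphk2, which read 31.9 and 28.0.

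**Figure D2:**
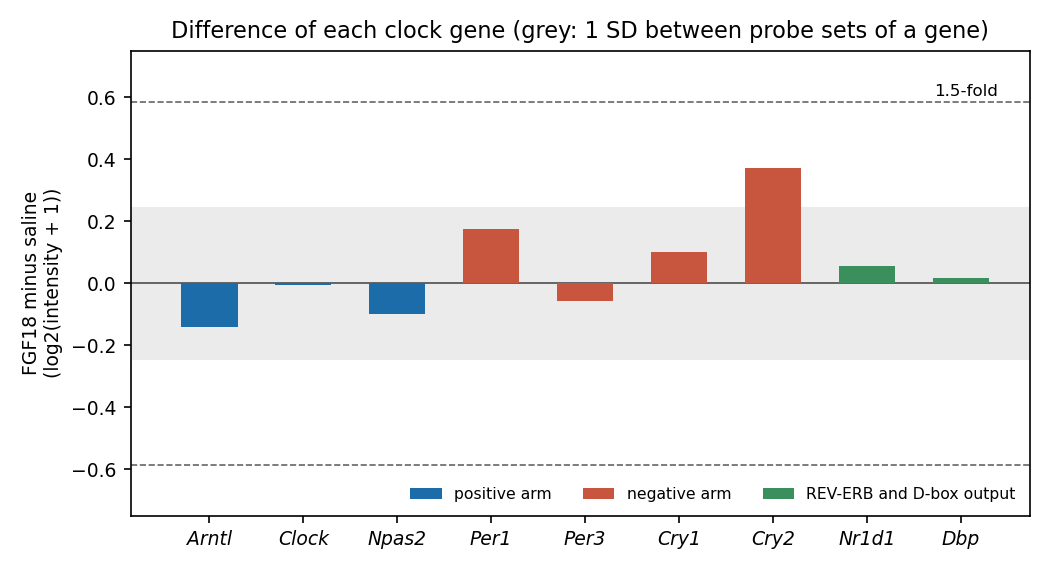
Difference of each measured clock gene, as log2(intensity + 1) with FGF18 less that in saline, coloured by arm. The grey band is 1 SD between probe sets of a gene (0.24), and dashed lines mark 1.5-fold. The Arntl bar reaches -0.14, the Clock bar is barely visible, Cry2 at 0.37 alone leaves the band, and no bar reaches 1.5-fold.

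The arms were then compared with each other. Skin taken at different clock phases can hold the genes of opposite peak time apart in opposite directions. Different phases can also give like levels of a gene, so a small contrast does not show like phases. The mean difference of Arntl, Clock and Npas2 was -0.08, and that of Per1, Per3, Nr1d1 and Dbp was 0.05. The contrast between these means was 0.13, or 1.09-fold. Carrying the probe-set SD through both means, with genes taken as independent, gives an SD of 0.19, larger than the contrast. This SD comes from other genes and covers no variation between animals, so it does not test the contrast. The contrast was 0.19 with Cry1 and Cry2 counted on the negative side, and 0.14 with the period genes alone. It was 0.17 without Clock, and 0.17 with clusters of several symbols counted, which adds the cluster shared by Per2. With 5 further genes that usually peak near Dbp (Nr1d2, Tef, Hlf, Ciart and Usp2) added after the values were seen, it was -0.01, and with the same genes except Usp2 it was 0.05. The SD of 0.19 belongs to the contrast of 3 and 4 genes and was not worked out for the other make-ups. With 1 array per group and no stated hour, a limit on how far apart the phases could be was not obtained.

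Genes with the same elements were also read across the whole array. The 1022 genes at or above the median level with an E-box in a promoter window had a median difference of 0.07, against 0.08 for the 7689 without it. The share at least 1.5-fold apart was 6.85% with the E-box and 7.99% without. For the E'-box, held by Cry1, Cry2 and Nr1d1, the medians were 0.075 over 542 genes and 0.076 over the rest, and the shares 8.30% and 7.82%. For the RORE core the medians were 0.07 over 188 genes and 0.08 over the rest. For the D-box they were 0.04 over 44 genes and 0.08 over the rest, and for the cAMP response element 0.08 over 307 genes and 0.08 over the rest. These shares and medians are descriptions with no test, and genes with a motif are not replicates.

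**Figure D3:**
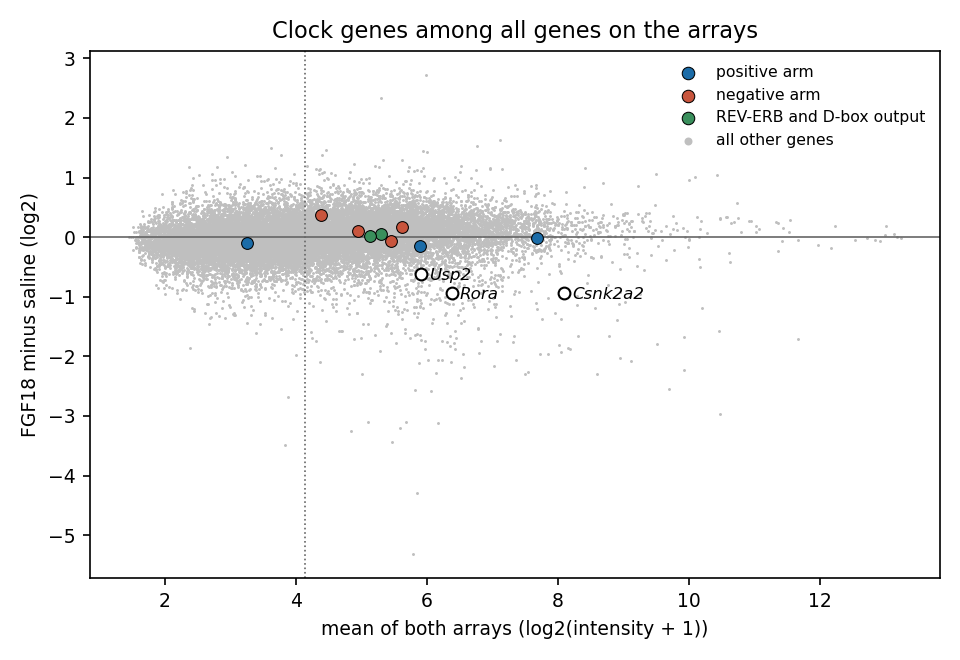
Difference (FGF18 minus saline, log2) against mean level of both arrays for all 22180 genes (grey), with the measured clock genes coloured by arm and Rora, Csnk2a2 and Usp2 as open circles. The dotted line is the median level (4.15). The coloured points lie in the dense part of the cloud, and the open circles lie below it.

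Beyond the core, 69 genes in 7 lists of the wider clock network were read, and 63 were measured. With FGF18, 45 read higher and 18 lower, a share of 71.4% on the higher side beside 59.4% of the 11090 genes. After subtraction of the intensity trend these counts were 37 and 26, beside 49.7%. Their median was 0.16 (0.08 with the trend subtracted). At least 1.5-fold apart were 3 (4.76%), all lower after FGF18, beside 8.28% of the 11090 genes either way. On the lower side 4.63% of the 11090 genes reached that fold, close to the share in these lists, and on the higher side 3.64%. The 3 genes are named because they passed this fold, and they act at different points of the clock. Rora encodes an activator of RORE elements and so of Arntl, Csnk2a2 a catalytic subunit of casein kinase 2, which phosphorylates clock proteins, and Usp2 a ubiquitin protease that is itself rhythmic in many tissues.

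Rora read 115 on the saline array and 59.7 with FGF18, 1.91-fold lower (difference -0.93). Arntl, a target of its protein, differed by -0.14 on the same arrays. Csnk2a2 read 378 and 198, also 1.91-fold lower, while the other catalytic subunit gene, Csnk2a1, read 201 and 158 (difference -0.35). Usp2 read 73.3 and 47.6 (1.53-fold lower), and it was under 1.5-fold with a pseudocount of 16 (difference -0.49). Only 2.49% of the 11090 genes were at least as far apart as Rora, and 7.30% as far apart as Usp2.

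Markers of several cell types also differed between the arrays. Of the 11090 genes, 59.4% were higher and 38.0% lower after FGF18. At least 1.5-fold apart were 3.64% on the higher side and 4.63% on the lower side. All 13 markers of differentiated keratinocytes were at least 1.5-fold lower after FGF18, with summed intensities of 21325 and 5697 in saline and FGF18. Growing hair markers were higher in 12 of 12 measured genes, with 10 at least 1.5-fold higher, with summed intensities of 3218 and 6270. Macrophage markers were higher in 7 of 7 genes (median 0.49, summed intensities 170 and 226). Over the 6 of them at or above the median level the median was 0.36. Fibroblast markers were lower in 5 of 7 genes (median -0.33, summed intensities 1123 and 1018), 2 of them by at least 1.5-fold. Of 6 measured basal keratinocyte markers 4 were higher, with a median of 0.09 and summed intensities of 1125 and 953, although the basal keratin gene Krt14 itself went from 575 to 328. Skeletal muscle markers were lower in 8 of 12 genes, 2 of them by at least 1.5-fold (median -0.16, summed intensities 7052 and 6555), with Casq1, a calcium store protein, at -1.14 and the actin gene Acta1 at 789 and 759. Adipocyte and endothelial markers had medians of -0.06 over 9 genes and -0.10 over 7 (summed intensities 612 and 794, and 141 and 129). No marker was listed at 0. Defining markers of skin were bright on both arrays, with the suprabasal keratin gene Krt10 at 5892 and 1799 and the collagen gene Col1a1 at 408 and 323. The part of these markers in the differences of Rora, Csnk2a2 and Usp2 was not tested.

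Of the other factors that act on RORE or D-box elements, 2 of 6 were higher and 4 lower. Nfil3, which represses D-box genes and so opposes DBP, read 29.5 on the saline array and 36.0 with FGF18 (1.21-fold higher). Nr1d2, the gene of the second REV-ERB protein, read 71.9 and 64.7 (difference -0.15). Hlf, a relative of Dbp, read 25.7 and 29.1 (difference 0.17), and a further relative, Tef, read 9.73 and 9.22, below the medians. Nfil3 and Hlf thus lay above 0 and Nr1d2 below it, while Tef and Rorb are too dim to give a direction.

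Among the other E-box factors and repressors 4 of 5 were higher, none by 1.5-fold. Ciart, which inhibits CLOCK and ARNTL and carries the 3 E-boxes shown above, was the lower one, at 32.1 in saline and 24.8 after FGF18 (difference -0.36, 1.28-fold lower). Bhlhe40, a repressor that competes for E-boxes, read 55.8 and 64.3 (difference 0.20). Its relative Bhlhe41 read 9.57 and 12.6, below the medians, and is too dim to give a direction. Arntl2, the paralog of Arntl, read 44.7 and 47.5 (difference 0.09), and Timeless, which acts mainly at replication forks, read 22.5 and 28.5 (difference 0.33).

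Regulators of clock protein stability and activity were higher in some cases and lower in others. The median size of a difference over the 11090 genes was 0.20, a size that as many genes pass as fall short of. It was passed by 3 of 11 kinase and phosphatase genes, 4 of 8 ubiquitin ligase and protease genes and 5 of 12 chromatin partners. Fbxl21, among the 4 ubiquitin genes, read 11.6 in saline and 8.64 after FGF18, below the medians, and is too dim to give a direction. Apart from Csnk2a2, none of the 11 measured kinase and phosphatase genes reached 1.5-fold, and the highest was Prkaa1, a subunit of the energy sensor AMPK, at 70.3 and 84.8 (difference 0.27). Of the 8 ubiquitin ligase and protease genes 5 were higher, beside 59.4% of the 11090 genes. Highest was Spsb4, a ligase adaptor for REV-ERBα, at 14.9 and 20.7 (difference 0.45), a dim gene close to the saline array median of 14.0. Of 12 chromatin partners 9 were higher, with a median of 0.17 that became 0.061 with the intensity trend subtracted. They ran from Ep300, a histone acetylase, at -0.14 to Sfpq, a partner of the period proteins, at 0.43. Csnk1d, which encodes a main kinase of the period proteins, had no cluster of its own and was not analysed here.

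Of 14 rhythmic output genes of the clock 10 were higher with FGF18, beside 59.4% of the 11090 genes, and their median was 0.19. With the intensity trend subtracted 9 were higher, beside 49.7%, and the median was 0.12. They ran from Dtx4 at -0.34 (26.4 in saline, 20.6 after FGF18) to Fkbp5, a glucocorticoid target, at 0.46 (33.5 and 46.4). All 7 measured genes of signals that also drive Per1 or Per2 were higher, with a median of 0.27, and none reached 1.5-fold. Crem, a regulator of cAMP-responsive genes, passed the array median only with FGF18 (12.3 and 14.9), and 6 were higher with the intensity trend subtracted. The immediate early gene Egr1 read 49.2 and 69.2 (difference 0.49), and the glucocorticoid receptor gene Nr3c1 read 74.4 and 75.1 (difference 0.01). Per1 at 0.18 lay below the median of that list.

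**Figure D4:**
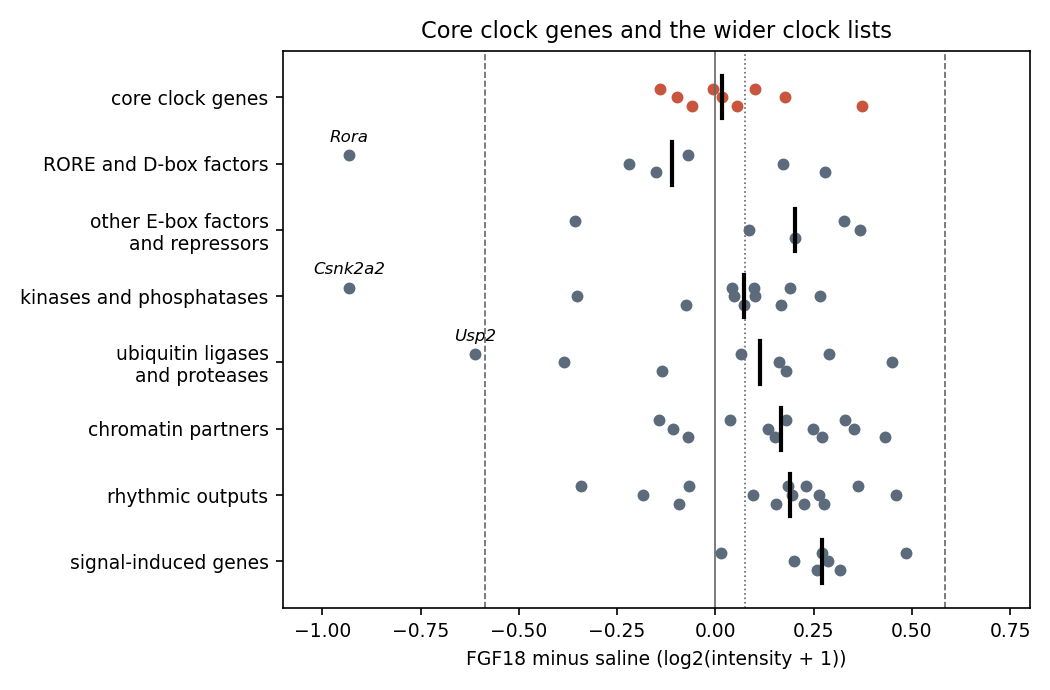
Difference of each gene (FGF18 minus saline, log2(intensity + 1)) in the core clock set and in the 7 wider lists, with a black bar at each list's median. The dotted line is the median of the 11090 genes (0.07), and dashed lines mark 1.5-fold. Core clock genes lie between -0.14 and 0.37, and only Rora, Csnk2a2 and Usp2 pass a dashed line.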

How the data were processed

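The authors deposited 1 intensity per transcript cluster and array from Affymetrix Mouse Gene 2.0 ST arrays, made with Affymetrix Expression Console and RMA per the submitters' processing notes, with versions not given in the sources used here. RMA corrects background, puts arrays on a shared distribution and summarises probes. The intensities were linear, as judged from the values, whose ranges were 1.39 to 11488 (saline) and 1.44 to 11532 (FGF18). Arrays have no read depth, and 1 array per group limits the precision. Groups came from the sample labels. Of 41345 clusters, 23521 had 1 gene symbol in the platform annotation and were used, 1814 had several and 16010 none. Log2(intensity + 1) was averaged over the clusters of a symbol, which gave 22180 genes. The comparison set was the 11090 genes with an average level no lower than the median over genes (4.15). All 10 clock symbols matched the mouse gene table (GRCm38.p6). A gene below the median intensity of its array is given without a fold.

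The clock genes, lists and alternatives were chosen with earlier results of these data known. Named genes were all clock genes, those of the wider lists at least 1.5-fold apart, and the highest and lowest of each list. That rule was written for 5 lists and applied to all 7. Thra, Sphk2, Csnk2a1, Csnk1d, Fbxl21, Crem, Casq1, the contents of the RORE, D-box and E-box lists, and the motifs were chosen after values were seen. Alternatives were a pseudocount of 16, median centring, loess trend subtraction (span 0.3, statsmodels 0.14.6), the brightest cluster, clusters of several symbols, other folds, and other make-ups of the arms. A value counted as moved if it shifted by more than the probe-set SD, scaled to the number of genes. The steps were tested on simulated data.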

Additional observations from a re-analysis of the deposited data

How the results depend on the processing

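Most of the 5 alternatives for values and clusters could not change a sign. A larger pseudocount cannot, and the brightest cluster is the only one that each measured clock gene has. Clusters of several symbols changed Cry2 alone, which stayed higher. The signs of Clock (near 0) and Npas2 (dim) give no direction in any case. Trend subtraction could change signs, and under it Nr1d1 and Dbp became lower while the other measured clock genes kept theirs. That step took 0.08 off the median of the 11090 genes and left 3 clock genes higher and 6 lower. Centring changed nothing, since the median over all genes was 0.00. The median over clock genes ran from -0.05 to 0.05 over its alternatives, and the arm contrast from 0.09 to 0.19 over those planned, with 0.12 without Npas2, -0.01 with the 5 added genes and 0.05 with these except Usp2. The count of clock genes past the threshold was 0 at 1.5-fold and 2-fold and 1 (Cry2) at the smallest fold tried. List medians moved in 4 cases. The RORE and D-box list went from -0.11 to 0.011 over its 4 brighter members. After trend subtraction the kinase list went from 0.07 to -0.0091, the chromatin list from 0.17 to 0.061 and the output list from 0.19 to 0.12. Over all 22180 genes, 6.76% were at least 1.5-fold apart. The causes were not tested. No paired analysis was possible because each group holds 1 array. Signal over background limits Npas2, Tef, Rorb, Bhlhe41, Fbxl21, Crem, Spsb4 and Cry2, which lie near or below the array medians.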

Other observations

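Genes that in many tissues share the phase of Dbp had differences from -0.61 to 0.17 here. Outside the core set Usp2 stood at -0.61, Ciart at -0.36, Nr1d2 at -0.15 and Hlf at 0.17, while Tef was below the array medians and gives no direction. Dbp and Nr1d1 themselves stood at 0.02 and 0.05. Of all these genes, only Usp2 and Ciart differed by more than the probe-set SD of 0.24. Wee1, a cell cycle kinase gene driven through E-boxes, read 21.8 in saline and 20.4 after FGF18 (difference -0.09), and Tsc22d3, a glucocorticoid target, read 33.4 and 38.1 (difference 0.18). These genes were grouped after their values were seen, and the differences have no test.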
